A study of Mus musculus with 4 samples.

Results

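The acute-phase and innate defence proteins described here are the serum amyloid A genes Saa1, Saa2 and Saa3, together with Lcn2, Lbp, Hp, Orm1, S100a8 and S100a9. They were chosen by gene symbol from a list of 10 genes, and every probe set that the platform's probe table assigns to 1 of them alone was used. That gave 10 probe sets for 9 genes, with 2 for Saa1 and 1 for each of the others, among 12394 genes named in all. C3, the tenth gene of the list, was not analysed here. RNA came from mammary glands of nulliparous female mice (FVB background) and was hybridised to 4 Affymetrix arrays. The groups were MMTV-PPARd mice on chow with GW501516, MMTV-PPARd mice on standard chow, wild-type littermates on chow with GW501516 and wild-type littermates on standard chow, each kept on its diet for 1 week. The transgene is PPARδ, a nuclear receptor that fatty acids activate, under the mouse mammary tumour virus promoter, which is active mainly in mammary epithelium and also in some other secretory tissues and lymphoid cells. GW501516 is a synthetic PPARδ agonist, and its content in the chow is given as 0.005% in the protocol and as 0.001% in a treatment tag. Each group was 1 array of RNA pooled from 5 mice, so that no difference below has a replicate check, no test was possible, and every value describes these 4 pools. The age of the mice is given only as matched between the genotypes.

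The acute-phase response is the change in secreted proteins that follows infection or injury. Interleukin 6 and interleukin 1 signal through STAT3, C/EBP factors and NF-κB, mainly in the liver, to raise serum amyloid A, haptoglobin, orosomucoid and lipopolysaccharide-binding protein. Epithelia make several of the same proteins on site. The mammary gland is known for Saa3 and Lcn2 during involution and mastitis, and adipocytes, which fill most of the virgin gland, release haptoglobin and orosomucoid. S100a8 and S100a9 form the heterodimer calprotectin, which is best known from neutrophils and is also made by stressed epithelium.

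Saa1, Saa2 and Saa3 lie on chromosome 7. Saa1 and Saa2 are direct neighbours in the RefSeq gene order, and only Saa4 lies between Saa3 and Saa1. Saa1 and Saa2 had the same order over the 4 pools, though the Saa2 probe set may read Saa1 in part. The order of Saa3 departed only in the transgenic pools, which differed by 1.07-fold. The promoters of the 3 genes, 250 bases before to 50 after the start site, are shown beside these orders, and no link between them was tested. They are RefSeq sequences of GRCm38.p6, at chr7:46742931-46743230 on the minus strand for Saa1, chr7:46751583-46751882 on the plus strand for Saa2 and chr7:46715627-46715926 on the minus strand for Saa3. Capitals mark the bases at which Saa1 and Saa2 differ in a global alignment, and in Saa3 the matches to a C/EBP motif.
Saa1: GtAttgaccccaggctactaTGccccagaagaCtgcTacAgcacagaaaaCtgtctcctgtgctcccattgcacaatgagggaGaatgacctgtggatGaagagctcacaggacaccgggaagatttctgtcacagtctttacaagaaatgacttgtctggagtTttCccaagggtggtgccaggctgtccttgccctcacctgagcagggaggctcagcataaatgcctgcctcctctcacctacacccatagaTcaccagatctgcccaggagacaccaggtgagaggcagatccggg
Saa2: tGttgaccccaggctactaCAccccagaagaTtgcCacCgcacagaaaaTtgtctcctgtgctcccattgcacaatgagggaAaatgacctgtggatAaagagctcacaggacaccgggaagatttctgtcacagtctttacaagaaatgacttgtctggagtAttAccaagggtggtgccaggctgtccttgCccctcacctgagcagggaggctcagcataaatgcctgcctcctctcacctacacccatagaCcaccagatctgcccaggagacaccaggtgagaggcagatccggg
Saa3: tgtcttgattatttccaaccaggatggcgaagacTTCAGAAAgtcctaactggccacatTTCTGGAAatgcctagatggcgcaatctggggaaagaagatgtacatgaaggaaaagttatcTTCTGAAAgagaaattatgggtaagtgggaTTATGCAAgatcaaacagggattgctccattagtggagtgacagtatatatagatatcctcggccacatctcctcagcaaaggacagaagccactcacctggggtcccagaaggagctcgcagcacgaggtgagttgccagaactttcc

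The Saa1 and Saa2 promoters share 287 bases, with 12 mismatches and 2 gap positions, an identity of 95.3%. The Saa3 promoter aligned at 54.1% to Saa1 and 53.3% to Saa2. The C/EBP motif was searched as TTNNGNAA on both strands, and 40.7% of 32851 mouse promoters of the same length hold it. Saa3 held 4 matches, Saa1 held 2 and Saa2 held 1. An NF-κB motif, searched on both strands as GGG and CC with 5 bases of any kind between them and present in 50.8% of promoters, matched once in Saa1 and once in Saa2. The STAT motif TTCNNNGAA, present in 8.3%, matched in none of the 3 windows. These are letter matches, and binding was not measured.

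Intensities are on the linear scale of the deposited table. For differences, a floor of 20.5 (the 25th percentile over all arrays) replaced lower values ahead of the log2 step, and a fold against an array at the floor is a lower bound, written as at least N-fold. Of the 12394 genes, 7836 reached the median of all values, 139, on at least 1 array and form the background. Of the 9 genes here, 8 passed this filter and Saa3 did not. Saa1 passed through both transgenic arrays and Saa2 only through the transgenic array on GW501516, so their presence among the genes that passed depends on their being high there. S100a9 passed only through wild type on chow, so its place in any count against that pool likewise depends on its being high there.

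Saa1 had the widest range over the 4 pools. The probe set whose table accession is a Saa1 transcript read 2794 in MMTV-PPARd mice on GW501516, 428.8 in MMTV-PPARd mice on chow, 82.5 in wild type on GW501516 and 9.2 in wild type on chow. Both transgenic pools lay above both wild-type pools, and within each genotype the pool on GW501516 was the higher. The other Saa1 probe set gave the same order, with 2799, 366.4, 54.4 and 12.1 in the same groups. Its table accession belongs to Saa2 in RefSeq, which also lists Saa2 among the other names of Saa1, and Saa1 among those of Saa2. This probe set may therefore read either transcript.

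Saa2, which encodes the closely related second acute-phase amyloid protein, read 1025 in MMTV-PPARd mice on GW501516, 101.0 in MMTV-PPARd mice on chow, 31.5 in wild type on GW501516 and 8.4 in wild type on chow. Its order over the pools was that of Saa1. Its probe set is of a kind that can bind near-identical transcripts, and the share of signal that comes from Saa1 was not tested. Saa3, the form made mainly outside the liver, read 91.5 in MMTV-PPARd mice on GW501516, 98.0 in MMTV-PPARd mice on chow, 62.1 in wild type on GW501516 and 36.0 in wild type on chow. The transgenic pools were again the higher, but all 4 values were below 139.

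**Figure D1:**
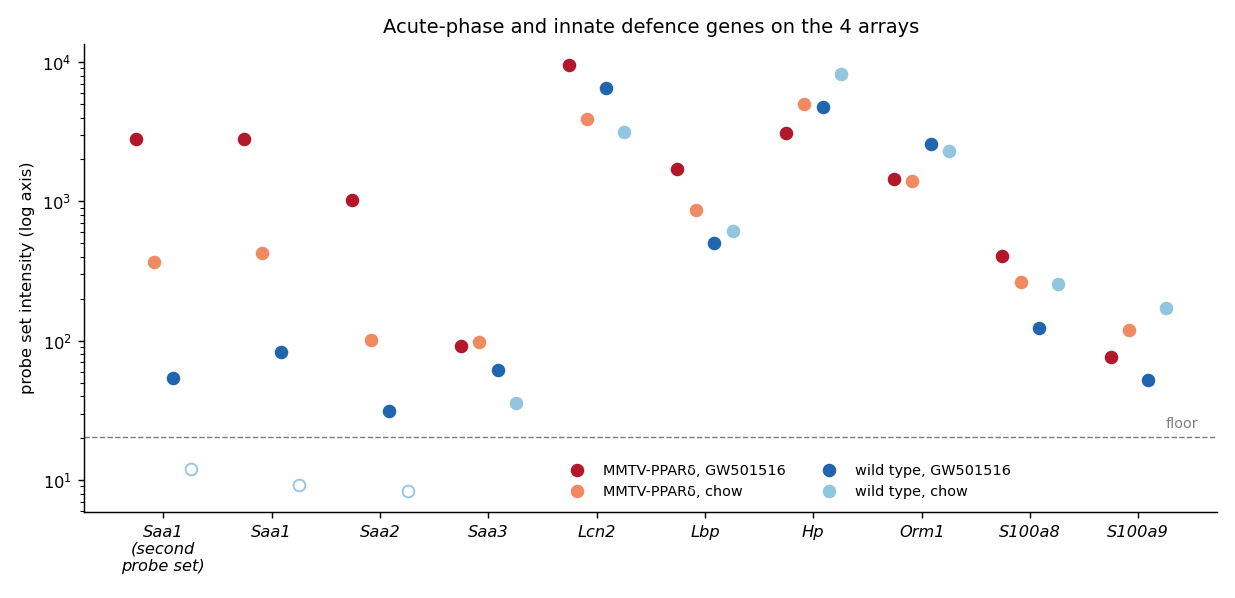
Probe set intensity (log axis) of the 9 genes on each of the 4 arrays, 1 point per array. The dashed line is the floor of 20.5 and open circles lie below it. Saa1 spans 9.2 to 2794, while Orm1 spans 1396 to 2577.

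The first question is how the PPARδ transgene changes these genes on each diet. On GW501516, Saa1 was 33.9-fold higher in transgenic mice (51.5-fold with the other probe set) and Saa2 32.5-fold higher. With the floor at the 40th percentile the log2 difference of Saa2 was 3.85, compared with 5.02. By log2 difference they stood at ranks 9 and 10 from the top of 7836 genes. Lbp, which hands bacterial lipopolysaccharide to CD14, was 3.38-fold higher, and S100a8 3.28-fold. The remaining genes that were higher differed by less than 2-fold. Saa3 was 1.47-fold, Lcn2 1.47-fold and S100a9 1.47-fold higher. Hp was 1.53-fold and Orm1 1.79-fold lower. Of the 8 genes that passed the filter, 4 reached 2-fold higher, against 2.82% of all genes, and 0 reached 2-fold lower, against 1.19%. Their median log2 difference was 1.14 (0.56 over all 9 genes measured), and that of all genes 0.0016.

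On chow, Saa1 in transgenic mice was at least 20.9-fold higher, and Saa2 at least 4.93-fold. Saa3 was 2.72-fold higher. Lbp was 1.42-fold and Lcn2 1.24-fold higher, while S100a8 differed by 1.03-fold, with a sign that turned under both other scalings. Hp was 1.62-fold, Orm1 1.66-fold and S100a9 1.44-fold lower. Of the 8 genes, 2 were at least 2-fold higher, against 5.46% of all genes, and 0 lower, against 3.71%. The median log2 difference was 0.18 (0.31 over all 9 genes measured), and that of all genes 0.020. With the floor at the 40th percentile the log2 difference of Saa1 was 2.59, compared with 4.39, and that of Saa2 0.51, compared with 2.30. For Saa3 that floor gave 0.46, compared with 1.44.

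Lcn2, or lipocalin 2, binds bacterial siderophores and so withholds iron. It read 9490 in MMTV-PPARd mice on GW501516, 3888 in MMTV-PPARd mice on chow, 6474 in wild type on GW501516 and 3141 in wild type on chow. Both pools on GW501516 lay above both pools on chow, and the genotypes overlapped. The lipocalin was 2.44-fold higher on GW501516 in transgenic mice and 2.06-fold higher in wild type.

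Lbp read 1711 in MMTV-PPARd mice on GW501516, 870.2 in MMTV-PPARd mice on chow, 506.5 in wild type on GW501516 and 611.1 in wild type on chow. The transgenic pools were the higher on each diet, and the pool with both transgene and agonist stood above the other 3. Lbp was 1.97-fold higher on GW501516 in transgenic mice and 1.21-fold lower in wild type. The difference between these effects was 1.25 on the log2 scale.

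Hp encodes haptoglobin, which captures free haemoglobin. It read 3102 in MMTV-PPARd mice on GW501516, 5042 in MMTV-PPARd mice on chow, 4756 in wild type on GW501516 and 8151 in wild type on chow. The untreated wild-type pool was the highest and the pool with both factors the lowest. Haptoglobin was 1.63-fold lower on GW501516 in transgenic mice and 1.71-fold lower in wild type, and the log2 effects differed by 0.076. With both transgene and agonist, haptoglobin was 2.63-fold lower than with neither.

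Orm1, orosomucoid or α1-acid glycoprotein, is a plasma carrier of lipophilic drugs. It read 1437 in MMTV-PPARd mice on GW501516, 1396 in MMTV-PPARd mice on chow, 2577 in wild type on GW501516 and 2310 in wild type on chow. Both transgenic pools lay below both wild-type pools, and the diets differed by 1.03-fold in transgenic mice and 1.12-fold in wild type. Genes of white adipocytes were also lower in transgenic mice. All 9 measured adipocyte markers passed the filter, 8 of them were below 0 on GW501516 with a median log2 difference of -0.34, and 9 were below 0 on chow with a median of -0.48. Their summed intensity was 53602 and 40520 in MMTV-PPARd mice on GW501516 and on chow, against 59123 and 55762 in wild type. Between diets, 8 of the 9 markers were above 0 on GW501516 in transgenic mice, with a median of 0.32. In wild type 5 were above 0, with a median of 0.031, while Hp was lower on GW501516 in both genotypes. Fewer adipocytes and less RNA per adipocyte cannot be told apart in whole tissue, and the part of adipocyte content in the Hp and Orm1 values was not tested.

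S100a8 and S100a9, which are direct neighbours on chromosome 3, encode the partners of calprotectin. S100a8 read 405.0 in MMTV-PPARd mice on GW501516, 265.6 in MMTV-PPARd mice on chow, 123.3 in wild type on GW501516 and 257.5 in wild type on chow. S100a9 read 76.9, 120.1, 52.2 and 173.0 in the same groups. Wild type on GW501516 was the lowest pool for both genes, but the highest was MMTV-PPARd on GW501516 for S100a8 and wild type on chow for S100a9. On GW501516 in wild type, S100a8 was 2.09-fold and S100a9 3.31-fold lower. In transgenic mice S100a8 was 1.52-fold higher on GW501516 and S100a9 1.56-fold lower. Of the neutrophil markers other than Lcn2, 10 were measured, of which 2, Mmp9 and Prtn3, passed the filter and 3, Camp, Mmp8 and Ctsg, were below the floor on all arrays. Mmp9, a gelatinase that other cells also make, read 112.0 to 166.6. The summed intensity of the 10 was 463.1 and 414.8 in MMTV-PPARd mice on GW501516 and on chow, against 367.2 and 997.4 in wild type. Prtn3, proteinase 3, read 103.6 to 185.5 on the other 3 arrays, against 626.3 in wild type on chow. Of the markers that did not pass, Ngp and Cxcr2 were also highest in wild type on chow, at 45.7 and 38.9. Csf3r was lowest there, at 19.1, and Mpo and Elane were highest in MMTV-PPARd mice on GW501516, at 28.3 and 37.0. The part of neutrophil content in the S100a9 values was not tested.

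Comparing GW501516 with chow asks what the agonist does in either genotype. In transgenic mice Saa2 was 10.1-fold and Saa1 6.52-fold higher on GW501516, at ranks 10 and 35 from the top. Of the 8 genes, 3 (Saa1, Saa2 and Lcn2) were at least 2-fold higher, against 3.99% of all genes, and 0 lower, against 4.07%. Their median log2 difference was 0.79 (0.61 over all 9 genes measured), and that of all genes -0.034. In wild type Saa1 was at least 4.02-fold higher and Saa2 at least 1.54-fold, while Saa3 was 1.73-fold higher. Here 2 (Saa1 and Lcn2) were at least 2-fold higher, against 3.18% of all genes, and 2 (S100a8 and S100a9) at least 2-fold lower, against 3.25%. The median was -0.057 (0.16 over all 9 genes measured), and that of all genes -0.037. The wild-type Saa1 difference rests on low intensities, and with the floor at the 40th percentile its log2 value was 0.22, compared with 2.01.

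Markers of other cell types moved in both agonist comparisons. All 10 skeletal muscle markers reached 2-fold higher on GW501516 in each genotype, against 3.99% of all genes in transgenic mice and 3.18% in wild type. Their median log2 differences were 2.05 in transgenic mice and 4.58 in wild type. All 6 T cell and all 5 B cell markers that passed reached 2-fold lower, against 4.07% of all genes in transgenic mice and 3.25% in wild type. The T cell and B cell medians were -2.24 and -2.91 in transgenic mice and -4.45 and -3.70 in wild type. Each of these T cell and B cell markers reached 139 only on chow arrays, so their place in these counts depends on their being high there. The summed T cell intensity was 142.3 and 153.0 in MMTV-PPARd and wild-type mice on GW501516, against 1397 and 4602 on chow. The part of muscle and lymphocyte content in the agonist differences of the 9 genes was not tested.

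**Figure D2:**
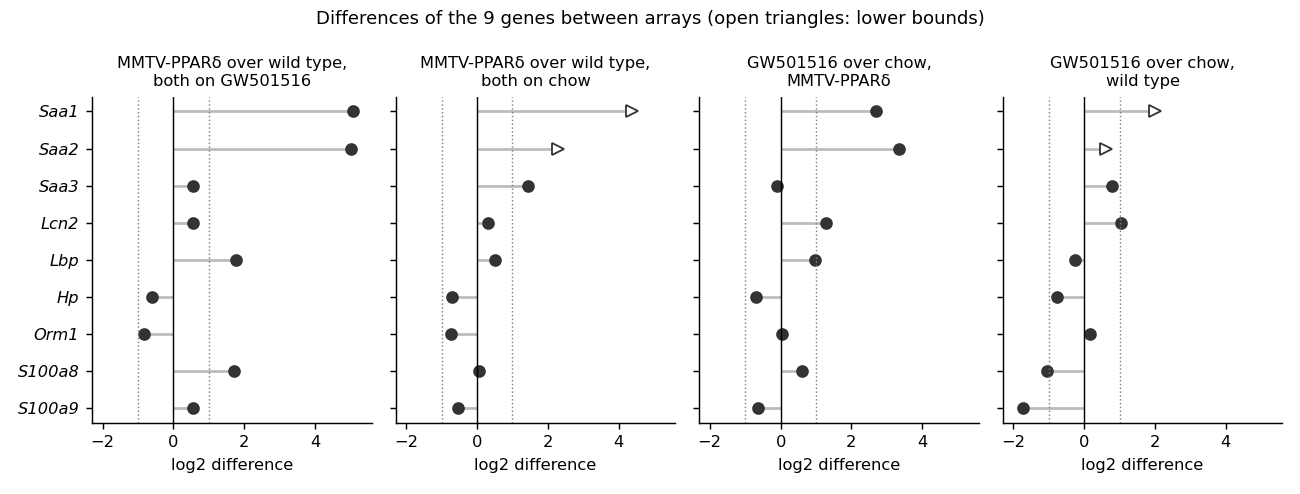
Log2 difference of each gene in the 4 comparisons, with dotted lines at 2-fold and open triangles for lower bounds against an array at the floor. Saa1 and Saa2 lie to the right in the comparison of genotypes on GW501516, at 5.08 and 5.02, and Hp lies left of 0 in all 4 panels.

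The agonist effects of the genotypes can be set side by side, since they share no array. Saa1 was higher on GW501516 in both genotypes, and because wild type on chow lay below the floor, the log2 difference between the effects was at most 0.70 (-0.46 without a floor). With the other Saa1 probe set it was at most 1.53. For Saa2 it was at most 2.72. For S100a8 it was 1.67 and for S100a9 1.09, the effect in transgenic mice being the higher. For Saa3 it was -0.89. For Lcn2, Hp and Orm1 it was 0.24, 0.076 and -0.12.

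**Figure D3:**
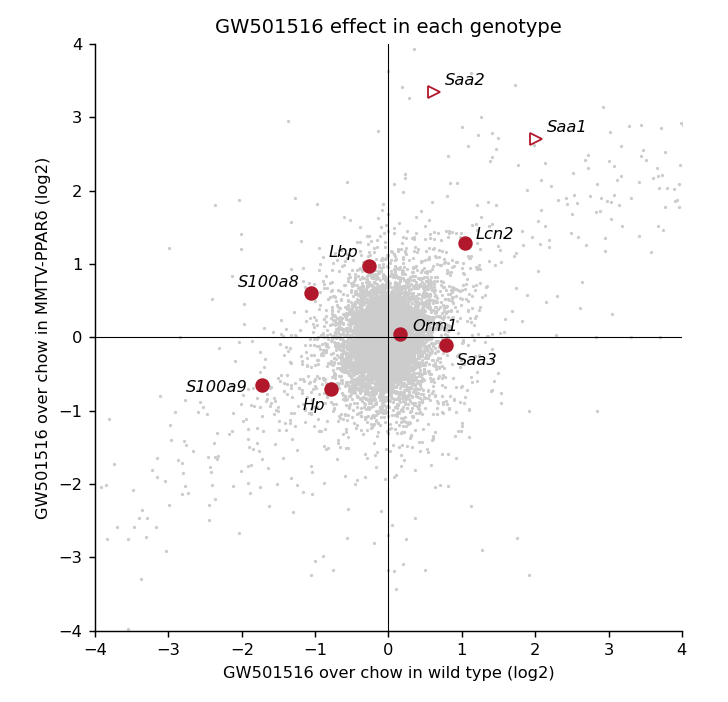
GW501516 over chow in wild type (horizontal axis) and in MMTV-PPARd mice (vertical axis), both as log2 differences, for the 9 genes (red, open triangles where the wild-type value is a lower bound) and for the genes that passed the filter (grey, 66 of 7836 lie outside the axes). Lcn2 lies to the upper right at 1.04 and 1.29, Hp to the lower left, and S100a8 and Lbp to the upper left.

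Genes with the most similar pattern were found by the Euclidean distance of log2 values over the 4 arrays, each gene centred on its own mean. Nearest to Saa1 were Pigr, the epithelial receptor for polymeric IgA, at 1.05, Slc34a2, a phosphate transporter, at 1.14 and Chrdl2, a BMP antagonist, at 1.30. Pigr read 2115 in MMTV-PPARd mice on GW501516, 489.5 in MMTV-PPARd mice on chow, 36.5 in wild type on GW501516 and 18.1 in wild type on chow. It has the same order of pools as Saa1. Nearest to Saa2 was Chrdl2 at 0.91, followed by Tc2n at 1.11 and Olah, a thioesterase of milk fat synthesis, at 1.17. Lcn2 was closest to Tmprss2, a serine protease of epithelial surfaces, at 0.12, which read 1490, 612.7, 1123 and 522.3 in the same groups. Lbp was closest to Dcxr, a sugar reductase, at 0.16. Hp was closest to Batf at 0.074 and to Cdh11, a cadherin of mesenchymal cells, at 0.13. S100a8 was closest to 2610528J11Rik at 0.21, and S100a9 to Serpinb6b at 0.20. Many genes lie near any pattern of 4 values, so these distances only describe the arrays.

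Milk protein and alveolar genes moved in the same comparisons as Saa1 and Saa2. Of 15 measured, 11 reached 2-fold higher in transgenic mice on GW501516, against 2.82% of all genes, with a median log2 difference of 1.73. On chow 9 reached 2-fold higher, against 5.46%, and 1, Lalba (3.93-fold), lower, against 3.71% (median 1.64). Within transgenic mice 9 reached 2-fold higher on GW501516, against 3.99%, the median being 1.35. In wild type 8 reached 2-fold higher on GW501516, against 3.18%, and 1 lower, against 3.25% (median 1.21). The 1 was Glycam1, at 2.2 in wild type on GW501516 and 4207 to 9535 on the other arrays, which also places it among the 11. Wap, Csn1s2b and Olah passed only through transgenic arrays, so their place in the counts depends on their being high there. The summed intensity of the 15 genes was 143420 and 69592 in MMTV-PPARd mice on GW501516 and on chow, against 56666 and 34532 in wild type. Of 11 luminal epithelial markers that passed, 9 were above 0 in transgenic mice on each diet, with medians of 0.56 on GW501516 and 0.92 on chow. Between diets, 4 of the 11 were above 0 on GW501516 in transgenic mice, with 0 at least 2-fold higher, 2 at least 2-fold lower and a median of -0.068, and 10 were above 0 in wild type, with a median of 0.33. The part of epithelial content in the Saa1, Saa2 and Lcn2 values was not tested. Of 11 hepatocyte markers measured, 2 passed the filter, and 5, among them Apoa1, Ahsg and Tat, were below the floor on all arrays. The 2 were Alb, albumin, which read 89.2 to 203.5, and the fibrinogen chain Fgb, which read 309.9 in wild type on GW501516 and 32.0 to 63.5 on the other arrays. The summed intensity of the list was 201.0 and 299.5 in MMTV-PPARd mice on GW501516 and on chow, against 507.4 and 296.2 in wild type.

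The cytokines that induce the acute-phase response read low on all 4 arrays. Il6 and Il1a were below the floor on all 4 arrays, so no fold is given. Il1b did not pass the filter and read 46.6 in MMTV-PPARd mice on GW501516, 106.5 in MMTV-PPARd mice on chow, 29.0 in wild type on GW501516 and 45.3 in wild type on chow. At these low readings Il1b was 2.35-fold higher in transgenic mice on chow and 2.29-fold lower on GW501516 in transgenic mice. The 7 genes of this list that passed were all receptors, and no cytokine passed. Of these receptors, none was 2-fold different between genotypes on GW501516 and none between diets in transgenic mice. Il6ra, the interleukin 6 receptor, was 2.20-fold lower in transgenic mice on chow, and Il17ra 2.50-fold lower on GW501516 in wild type.

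Stat3, the main transcription factor downstream of interleukin 6, differed little between the pools. It read 898.0 in MMTV-PPARd mice on GW501516, 980.0 in MMTV-PPARd mice on chow, 889.0 in wild type on GW501516 and 1009 in wild type on chow. Of the 13 factors and feedback genes that passed, 0 were at least 2-fold higher in any of the 4 comparisons. In transgenic mice on GW501516, Cebpd, a C/EBP factor, was 2.78-fold lower than in wild type and Socs3, the feedback inhibitor of STAT3, 2.20-fold lower. Cebpd read 785.8 there, against 2181 in wild type on GW501516. Nfkbiz, an NF-κB cofactor, was 2.29-fold lower on GW501516 in transgenic mice, and 1.08-fold lower in wild type. Relb was 2.21-fold lower on GW501516 in transgenic mice and 2.81-fold lower in wild type. It is an NF-κB subunit abundant in lymphoid cells, and the T cell and B cell markers were lower in the same comparisons. The part of lymphocyte content in the Relb values was not tested. Of 12 genes known from involution and as STAT3 targets, 0 reached 2-fold higher in transgenic mice on GW501516. As much lower were 3 of them, against 1.19% of all genes. These were Cebpd and Socs3 and also Timp1, an inhibitor of metalloproteases, at 2.71-fold.

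Among the sensors of bacterial products, which include the partners of Lbp, Tlr2 and Cd14 were higher in transgenic mice. Tlr2, a receptor for lipoproteins, read 689.6 in MMTV-PPARd mice on GW501516, 364.3 in MMTV-PPARd mice on chow, 136.8 in wild type on GW501516 and 184.4 in wild type on chow. It was 5.04-fold higher in transgenic mice on GW501516. Cd14, the lipopolysaccharide receptor that Lbp serves, read 3729, 3101, 2094 and 1065 in the same groups and was 2.91-fold higher in transgenic mice on chow. Tlr4 lay between 263.3 and 324.7 on all arrays. Of 10 such genes that passed, 1 reached 2-fold higher in the transgenic pool on each diet, and 0 were as much lower. These were Tlr2 on GW501516, against 2.82% of all genes, and Cd14 on chow, against 5.46%. The receptors of the proteins described here, of which 5 passed, included none past 2-fold between genotypes, and Slc22a17, a receptor for lipocalin 2, read 147.2 in MMTV-PPARd mice on GW501516 and 90.5 to 106.1 on the other arrays.

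The other secreted antimicrobial genes divided. Ltf, lactoferrin, which binds iron, read 5185 in MMTV-PPARd mice on GW501516, 426.6 in MMTV-PPARd mice on chow, 1482 in wild type on GW501516 and 679.6 in wild type on chow. It was 12.2-fold higher on GW501516 in transgenic mice and 2.18-fold higher in wild type. Chil1, a chitinase-like protein, was 6.90-fold and 2.65-fold higher in these comparisons. Muc1, an epithelial mucin, was 7.29-fold higher in transgenic mice on GW501516 and 7.49-fold on chow. Slpi, a secretory protease inhibitor, was 3.85-fold lower on GW501516 in transgenic mice. Defb1, a β-defensin, was high on the transgenic chow array alone, at 174.7, against 17.1 to 52.1 on the others. Of 10 that passed, 4 reached 2-fold higher in transgenic mice on GW501516, against 2.82% of all genes, and 1 was lower, against 1.19%. The 4 were Pigr (57.9-fold), Muc1, Ltf (3.50-fold) and Chil1 (3.14-fold). On chow 3 were higher, against 5.46%, among them Pigr at least 23.9-fold, and 1 lower, Ptx3 (2.27-fold), against 3.71%. On GW501516 in transgenic mice 4 were higher, against 3.99%, and 2 lower, against 4.07%. Pigr and Muc1 passed the filter only through the transgenic arrays, and Defb1 only through the transgenic chow array. Their place in these counts therefore depends on their being high there.

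None of the other acute-phase plasma proteins that passed the filter was 2-fold higher in transgenic mice on either diet. Of 20 measured, 8 passed, and on GW501516 3 were at least 2-fold lower, against 1.19% of all genes, the median log2 difference being -0.47. These were the fibrinogen chains Fgb (9.48-fold) and Fgg (8.16-fold) and Mt2, a metallothionein (2.60-fold). Fgb read 309.9 and Fgg 775.8 in wild type on GW501516, against 32.0 to 63.5 and 95.1 to 291.1 on the other arrays. Fgb passed only through that array, so its place in the count depends on its being high there. The salivary gene Bpifa2 read 3719 on the same array, against 1.3 to 9.4 on the others. Of 5 salivary genes that passed, 3 were at least 2-fold higher on GW501516 in wild type, against 3.18% of all genes. These 3 passed only through that array. Prol1 was lower, against 3.25%, at 6.1 there and 147.2 in wild type on chow, the only array through which it passed. The part of other glandular tissue in the fibrinogen values was not tested. Lrg1, a leucine-rich glycoprotein induced by interleukin 6, was 6.61-fold lower in transgenic mice on chow and 3.52-fold higher on GW501516 within transgenic mice. Serpina3n, a serpin of the acute phase, was 2.66-fold lower in transgenic mice on chow. Crp, Apcs, Saa4 and Hpx were below the floor on all arrays.

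Most complement genes were lower on the transgenic chow array, where Gapdh and the control transcript BioB also read low. Of 12 that passed, 3 reached 2-fold lower in the transgenic chow pool, against 3.71% of all genes. The median log2 difference there was -0.52, and 0 were past 2-fold on GW501516, where the median was -0.20. The 3 were C1qc (2.66-fold) and C1qa (2.07-fold), chains of the first complement component, and Cfp, properdin (2.61-fold). The macrophage markers, of which 8 passed, had medians of -0.60 on chow and -0.10 on GW501516. The part of macrophage content in the C1q values was not tested.

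**Figure D4:**
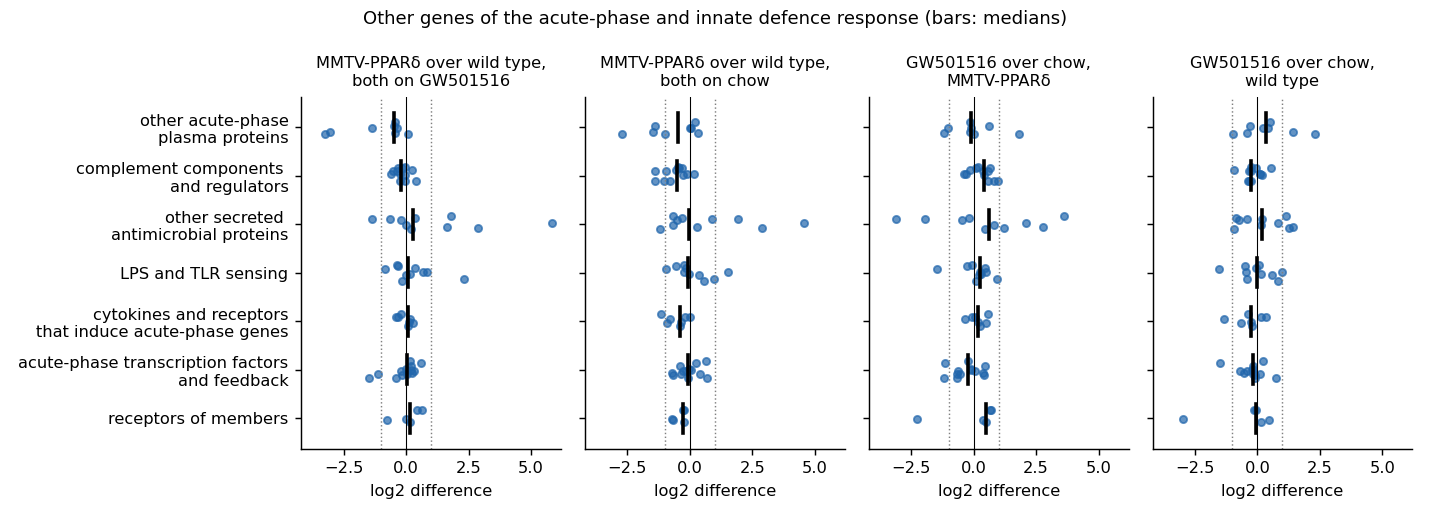
Log2 differences of the other acute-phase and innate defence genes that passed the filter, 1 point per gene, in the 4 comparisons; black bars are list medians and dotted lines mark 2-fold. The antimicrobial list spreads most, from -1.35 to 5.86 in the comparison of genotypes on GW501516, and the list medians lie between -0.52 and 0.63.

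The arrays carried some facts that bear on all values. Ppard read 4224 and 1943 in MMTV-PPARd mice on GW501516 and on chow, against 1.5 and 2.1 in wild type, which matches the labelled genotypes. Gapdh read 3573 on the transgenic chow array and 8730 to 12274 on the others, and the control transcript BioB 32.4 there against 438.1 to 519.0. The part of these departures in the comparisons with the transgenic chow array was not tested. Skeletal muscle markers had a summed intensity of 78776 and 21378 in MMTV-PPARd mice on GW501516 and on chow, against 83153 and 9280 in wild type, which sets both arrays on GW501516 apart from both on chow.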

How the data were processed

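Each of the 4 arrays took biotin-labelled cRNA from a pool of 5 mice, per the labels' protocols. The deposited values are linear probe set intensities. Their mean without the lowest and highest 2% was 500.2 on every array, so the authors had scaled the arrays to a common trimmed mean. The summarisation software, detection calls and a genome build are not given in the sources used here. Gene symbols came from the platform's probe table and were updated by gene ID: 20393 of 22690 probe sets had 1 symbol (20364 matched), 691 several and 1606 none. Where a gene had several probe sets, the one with the highest mean intensity stood for it. Differences are of log2 values after the floor. The rule for named genes took the 9 described, up to 5 per list among those at least 2-fold different, the 3 nearest patterns and array checks. Other list genes, such as Stat3, Tlr4, Slc22a17, Il1b and those below the floor, were named after their values were seen. In all, 8 alternatives were run. The genes and lists were chosen with earlier results of these data known. With 1 array per group there was no test, and the number of arrays limits the precision. Values were computed with Python 3.11.15, pandas 2.3.3, numpy 2.4.6 and Biopython 1.88, and the steps were tested on simulated data. Array intensities carry no read depth.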

Additional observations from a re-analysis of the deposited data

Results flagged for a closer look

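For 4 genes the direction was opposite between groups under the same contrast, with 1 pool per group, and these differences were not tested. Lbp was higher on GW501516 in transgenic mice and lower in wild type, a difference of effects of 1.25 on the log2 scale. S100a8 went the same opposite ways, with a difference of 1.67. Saa3 was lower on GW501516 in transgenic mice (-0.099) and higher in wild type (0.79), a difference of -0.89 over intensities of 36.0 to 98.0. With the floor at the 40th percentile its wild-type value was 0.000 and the difference -0.099, so that the directions were no longer opposite. S100a9 was higher in transgenic mice on GW501516 (0.56) and lower on chow (-0.53), a difference of 1.09.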

How the results depend on the processing

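The alternatives were 2 other scalings, 2 other floors, 2 other filters and 2 other choices of probe set. Of 340 recomputed log2 differences of the 9 genes, 324 stayed within 1.5-fold of the reported value, 16 moved further, and 0 of those that were at least 2-fold changed direction. All 16 belong to Saa1, Saa2 or Saa3 under another floor. Of 64 recomputed counts of genes past 2-fold, 54 stayed within 1.5 times. Another alternative left out probe sets whose names mark them as able to read more than 1 transcript, of the same gene or of others. By construction this drops Saa2, Saa3, Lcn2 and S100a8, and whether the Lcn2 and Saa3 probe sets read another gene was not tested. Then 2 genes were higher in transgenic mice on GW501516 (4 reported), 1 on chow (2 reported) and 1 on GW501516 in transgenic mice (3 reported). On GW501516 in wild type 1 was higher and 1 lower (2 and 2 reported). With the floor at the 40th percentile, 1 was higher in transgenic mice on chow and 1 on GW501516 in wild type. With the filter on 2 arrays, 1 was higher in transgenic mice on chow and 1 lower on GW501516 in wild type, since fewer genes pass. Under quantile normalization 1 was higher on GW501516 in wild type, Lcn2 falling to 0.97 (log2). No paired analysis was possible because each group has 1 array. Values near the floor limit Saa1, Saa2 and Saa3 in wild type.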
